A study of Mus musculus with 20 samples.

Results

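The lysosomal genes described here are 40 genes that encode enzymes of the lysosome, proteins of its membrane, and proteins that tag, protect or switch on these enzymes. They were chosen by name, and a gene was kept where at least 5 of the 20 libraries held 10 or more counts. All 40 genes met this rule, and all 40 were among the 16692 genes tested. Their expression was measured by RNA-seq in the hippocampus of male C57BL/6 mice of 5 and 24 months, with 5 libraries in each of 4 groups. The groups 5mSC and 24mSC carried no perturbation (standard cage, SC), and the groups 5mEE and 24mEE lived in an enriched environment (EE), housing with objects to explore and running wheels. Per the paper the aged enriched mice entered this housing late in life, after standard housing. How long the enriched mice of 5 months had lived in it is not given in the sources used here. No mouse carried a transgene or a deletion, and each library was taken as 1 sample. Nothing in the labels says whether a library is 1 animal. Per the paper, RNA was extracted and libraries were prepared sample by sample. The p-values weigh a difference against the spread between libraries.

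Lysosomes are acidic organelles in which hydrolases break down proteins, glycans, glycogen and lipids that arrive by endocytosis, phagocytosis or autophagy. Most lumenal enzymes receive a mannose 6-phosphate tag in the Golgi, which a receptor reads to route them to the lysosome, and heavily glycosylated membrane proteins such as Lamp1 and Lamp2 line the organelle. Inherited loss of many of these enzymes causes lysosomal storage disease with damage to the brain, and microglia, the phagocytes of the brain, express several of the genes at high levels. The transcription factor Tfeb is known to bind a short palindromic element, related to the E-box CACGTG, in the promoters of many lysosomal genes.

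The libraries held 10.96 to 34.1 M (mega) counts each. The library 5mSC replicate 3 stood apart. Mitochondrial ribosomal RNA took 26.8% of its counts, against 0.883 to 1.82% in the other 19 libraries, and it had the lowest total. The median Pearson r of its log2 CPM with its own group, over genes, which are not independent replicates, was 0.922, against 0.979 to 0.992 for the others. It held the lowest value of its group in 23 of the 40 lysosomal genes and the highest in 8, so the age differences in the standard cage that it moves are given without it as well, for the genes described. Of the 40 age differences in the standard cage, 28 moved by over 1.5 times or changed sign without this library, of which 4 changed sign. Markers of hippocampal neurons were present in every group, at a mean log2 CPM of 6.79 to 7.14 over 10 genes. Markers of the neighbouring neocortex and striatum were not at 0. The summed level of the 6 neocortical markers overlapped between the groups (168 to 206 CPM in 24mSC, 134 to 204.5 in 5mSC, 128 to 183 in 5mEE and 118 to 188 in 24mEE). The summed level of the 6 striatal markers was 77.4 to 87.0 CPM in 24mSC, 51.3 to 77.0 in 5mSC, 56.5 to 71.1 in 5mEE and 61.2 to 76.9 in 24mEE.

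The promoters were read first, since they show what many of the genes share without any use of their levels. RefSeq starts on GRCm38.p6, the assembly family of the counts, were found for 37 of the 40 genes (44 starts). In the 250 bases before the start, the letters CACGTG, which read the same on both strands, stood in 15 of the 44 windows (34.1%), against 1978 of all 32851 windows of that length (6.02%). The 7-letter form TCACGTG on either strand stood in 29.5% of the windows of lysosomal genes and 3.13% of all windows, and the 8-letter form TCACGTGA, which contains both shorter forms, in 13.6% and 0.785%. The holders of CACGTG were Arsa, Cln3, Ctsa, Ctsd, Ctsf, Ctsl, Gaa, Gla, Glb1, Gnptg, Lamp1, Lgmn, Mcoln1, Naglu and Sgsh. Cln3, Ctsa, Gnptg and Lgmn each have another RefSeq start as well, whose window held no CACGTG. These are matches of letters and not binding sites, and the lysosomal genes were chosen by function, for which such an element is textbook knowledge.

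The stretches below, 5′ to 3′ on the strand of the gene, show the match in Mcoln1 and Naglu, which are described by library further on, and in the genes with the 8-letter form. CACGTG is in capitals, and the number gives how many bases before the RefSeq start it begins. Starts differ between annotations. In GENCODE M21 the matches shown for Ctsa, Cln3, Ctsd and Naglu, and the nearer one of Mcoln1, lie inside the gene.
Mcoln1, 71 bases before the start, chr8:3500436-3500465, plus strand: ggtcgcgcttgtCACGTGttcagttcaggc
Mcoln1, 45 bases before the start, chr8:3500462-3500491, plus strand: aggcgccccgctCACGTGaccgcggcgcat
Naglu, 73 bases before the start, chr11:101070009-101070038, plus strand: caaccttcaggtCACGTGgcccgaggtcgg
Ctsa, 12 bases before the start, chr2:164833749-164833778, plus strand: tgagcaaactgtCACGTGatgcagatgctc
Ctsd, 98 bases before the start, chr7:142387908-142387937, minus strand: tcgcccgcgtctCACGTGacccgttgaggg
Cln3, 121 bases before the start, chr7:126583340-126583369, minus strand: cacgggtactgtCACGTGacccccaacctg
Gnptg, 21 bases before the start, chr17:25240120-25240149, minus strand: ccggctgtcactCACGTGaccgtgagaccc
Gla, 227 bases before the start, chrX:134601215-134601244, minus strand: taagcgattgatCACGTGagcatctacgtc
Gla, 194 bases before the start, chrX:134601182-134601211, minus strand: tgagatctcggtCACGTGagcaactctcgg
Lamp1 held 4 copies within the last 61 bases before its start, and its stretch was chosen after this was seen.
Lamp1, the 80 bases before the start, chr8:13159081-13159160, plus strand: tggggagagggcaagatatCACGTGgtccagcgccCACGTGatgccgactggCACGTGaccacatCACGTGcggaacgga

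The levels of the genes spanned more than 2 orders of magnitude once exon length was taken into account. Per kb of exon, Psap, the precursor of the saposins that help enzymes reach sphingolipids, was the most abundant at a mean of 544 CPM per kb over the 20 libraries. It was followed by the aspartic protease Ctsd (150 CPM per kb), the iduronate sulfatase Ids (121), the membrane protein Lamp1 (107.5 CPM per kb) and the cysteine protease Ctsb (80.4). The lowest were the heparan N-sulfatase Sgsh (1.28 CPM per kb), Tfeb itself (1.4) and the beta-mannosidase Manba (1.81). Every library held at least 25 counts of every gene, so no level lay near the limit set by a count of 0. Neighbours in this order often overlapped within their spread: Man2b1 ranged over the group means from 5.55 CPM per kb in 5mSC to 7.82 in 24mSC, and its neighbour Glb1, at a mean of 6.07 CPM per kb, lay inside that range. The spread within a group, as the mean SD of log2 CPM, was smallest for Ppt1 (0.06) and largest for Gaa (0.27), so a small difference was easier to see in the former.

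**Figure D1:**
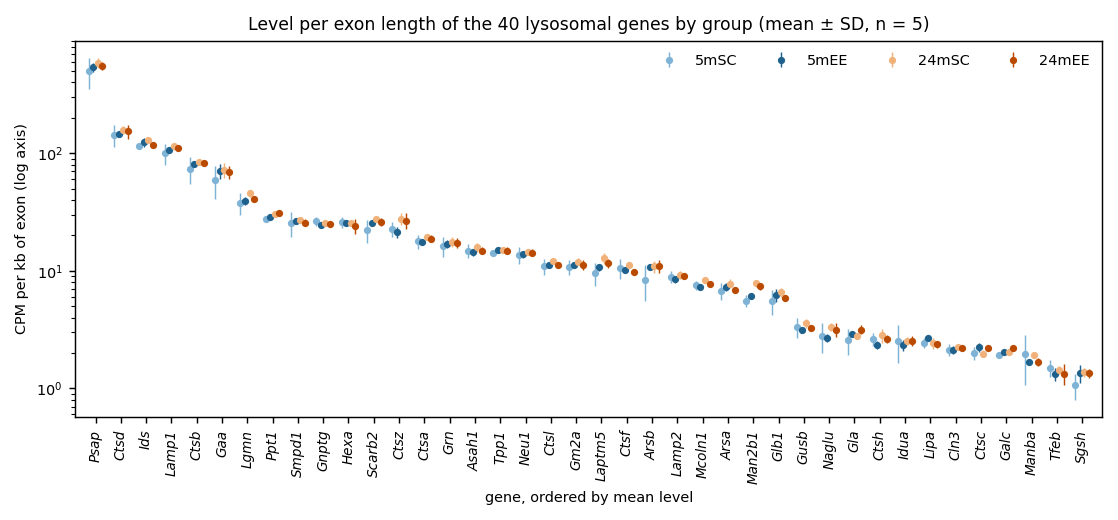
Level of each of the 40 genes in CPM per kb of exon (log axis), ordered from the highest to the lowest mean; points are group means and bars are the SD of 5 libraries. Psap is highest at a mean of 544 CPM per kb and Sgsh lowest at 1.28, and the 4 groups lie close together beside the range between genes.

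Age was compared within each kind of housing, as 24mSC against 5mSC in the standard cage and as 24mEE against 5mEE in enriched housing, to ask which lysosomal genes differ between young and old hippocampus. In the standard cage 1 of the 40 genes passed edgeR's test after adjustment over all genes, and it rose; over all genes 0.803% passed. In enriched housing none passed, by edgeR or by DESeq2, against 0.108% of all genes by edgeR. The difference with age averaged over both kinds of housing, which uses all 20 libraries, was passed by the same gene, against 1.19% of all genes. This gene is Man2b1, the lysosomal alpha-mannosidase that trims mannose from glycoproteins and whose loss causes alpha-mannosidosis.

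Man2b1 (ENSMUSG00000005142) lies on chromosome 8 of GRCm38 from 85083270 to 85098282. Its level in the 5 libraries of 5mSC was 48.0, 46.8, 36.9, 49.6 and 41.6 CPM, and in 24mSC it was 60.1, 58.6, 70.9, 62.9 and 61.3 CPM. The 5 libraries of 5mEE read 51.4, 47.6, 51.0, 44.7 and 48.2 CPM, and those of 24mEE 60.7, 55.9, 60.3, 54.4 and 64.3 CPM. Every library of 24 months lay above every library of 5 months in either housing. Group means were 44.6 ± 5.21 CPM in 5mSC, 48.6 ± 2.74 in 5mEE, 62.8 ± 4.80 in 24mSC and 59.1 ± 4.00 in 24mEE (SD, n = 5 each). With age the gene rose in the standard cage by a log2 difference of 0.49 ± 0.0787 (SE; 1.4-fold; adjusted p = 0.00646) and averaged over housing by 0.39 ± 0.0554 (1.31-fold; adjusted p = 0.00108). In enriched housing its log2 difference was 0.28 ± 0.0781 (adjusted p = 0.41), and the difference between both age effects was −0.21 (adjusted p = 0.632), so they were not shown to differ. No exon of Man2b1 overlapped another gene. The call in the standard cage was lost when only the 10 libraries of these groups were fitted (0.48, adjusted p = 0.171), a fit in which 3 of 15829 genes passed. Without 5mSC replicate 3 the value was 0.43 (adjusted p = 0.00327).

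Complete separation of the groups was rare among all genes. In the standard cage 1.68% of all genes had every 24-month library above every 5-month library, and among the lysosomal genes this held for Man2b1. In enriched housing the share was 1.63%, and Man2b1 and Ppt1 were the lysosomal genes of this kind. Over both kinds of housing together, 0.168% of all genes had all 10 old libraries above all 10 young ones, and Man2b1 was the single member of the 40.

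**Figure D2:**
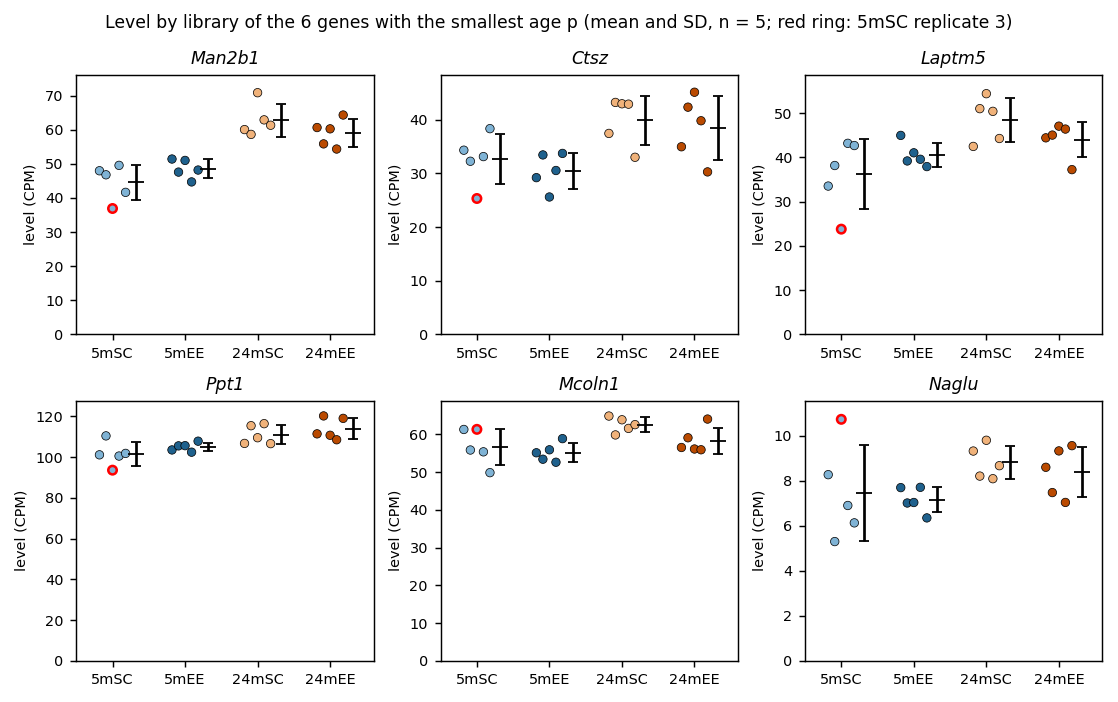
Level in CPM of Man2b1, Ctsz, Laptm5, Ppt1, Mcoln1 and Naglu in each library, by group; dashes and bars are the mean and SD of 5 libraries, and the red ring marks 5mSC replicate 3. The Man2b1 points of 24 months (54.4 to 70.9 CPM) lie above all of its points of 5 months (36.9 to 51.4 CPM), while the other genes overlap between the ages.

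Most of the other genes had small positive differences with age that did not pass the test. In the standard cage 34 of 40 were positive and 6 negative, with a median log2 difference of 0.13, whereas 47.98% of all genes were positive and their median was −0.01. At an unadjusted p under 0.05, 11 of the 40 (27.5%) were higher and none lower, against 8.72% of all genes that were higher. This count depended on single libraries and on the fit: it was 3 without 24mSC replicate 3, 5 without 24mSC replicate 1, 8 without 5mSC replicate 3 and 3 when only the compared groups were fitted, with a range of 3 to 15 over all alternatives. The signs depended less on them, with 30 to 36 genes positive over all alternatives, and 32 with a median of 0.10 without 5mSC replicate 3. In enriched housing 28 of 40 were positive with a median of 0.04, against 49.33% of all genes. There 3 were higher at an unadjusted p under 0.05 (7.5%), against 2.71% of all genes. Averaged over housing, 34 were positive with a median of 0.08, against 47.98% of all genes. Of the 40, 10 were higher at an unadjusted p under 0.05 (25%), against 6.81% of all genes.

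**Figure D3:**
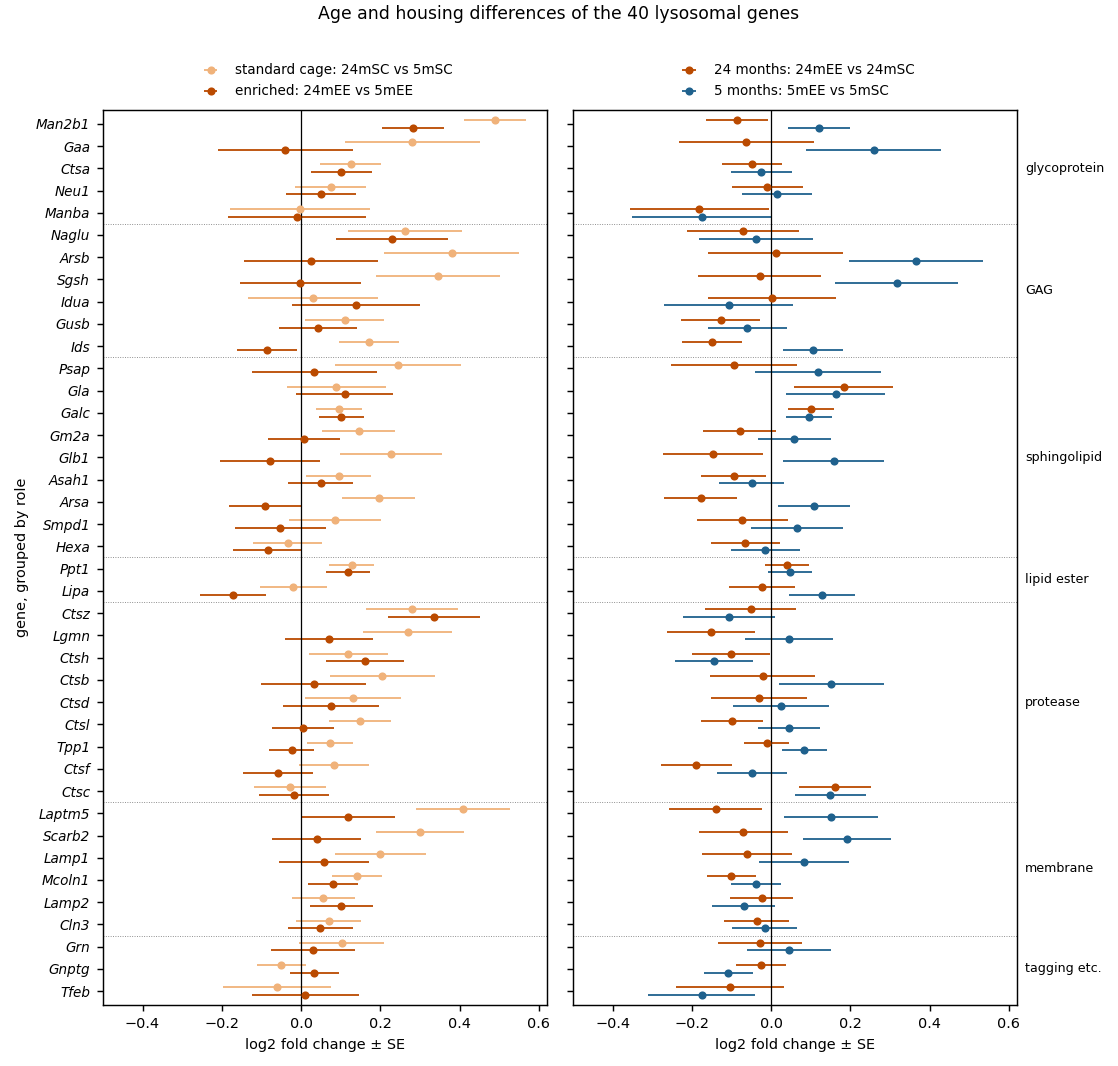
Log2 fold change with SE of the 40 genes, grouped by role, for age in each housing (left) and for housing at each age (right). In the standard cage 34 of the 40 age differences are positive with a median of 0.13 and in enriched housing 28 with a median of 0.04; at 24 months 34 of the 40 housing differences are negative, with a median of −0.06.

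Among the glycoprotein and glycogen hydrolases, 4 of 5 were positive with age in the standard cage and Man2b1 alone passed. Gaa, the acid alpha-glucosidase that degrades glycogen, read 283 ± 86.6 CPM in 5mSC and 344 ± 47.9 in 24mSC (SD, n = 5 each), a log2 difference of 0.28 (adjusted p = 0.362). Without 5mSC replicate 3 it was 0.12, and in enriched housing −0.04. Ctsa, the protective protein that stabilises the galactosidase Glb1 and the sialidase Neu1, had log2 differences of 0.12 in the standard cage and 0.10 in enriched housing, neither passing, and those of Neu1 were 0.08 and 0.05. The standard cage values without 5mSC replicate 3 were 0.07 for Ctsa and 0.00 for Neu1. Manba, the beta-mannosidase that acts after Man2b1 in glycan breakdown, was at 0.00 and −0.01. The value in the standard cage was set by 5mSC replicate 3, which read 24.5 CPM against 8.45 to 12.6 CPM in the rest of the group, and without it the log2 difference was 0.27 (adjusted p = 0.0991). The plot of each gene by library shows this cell as the darkest red.

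**Figure D4:**
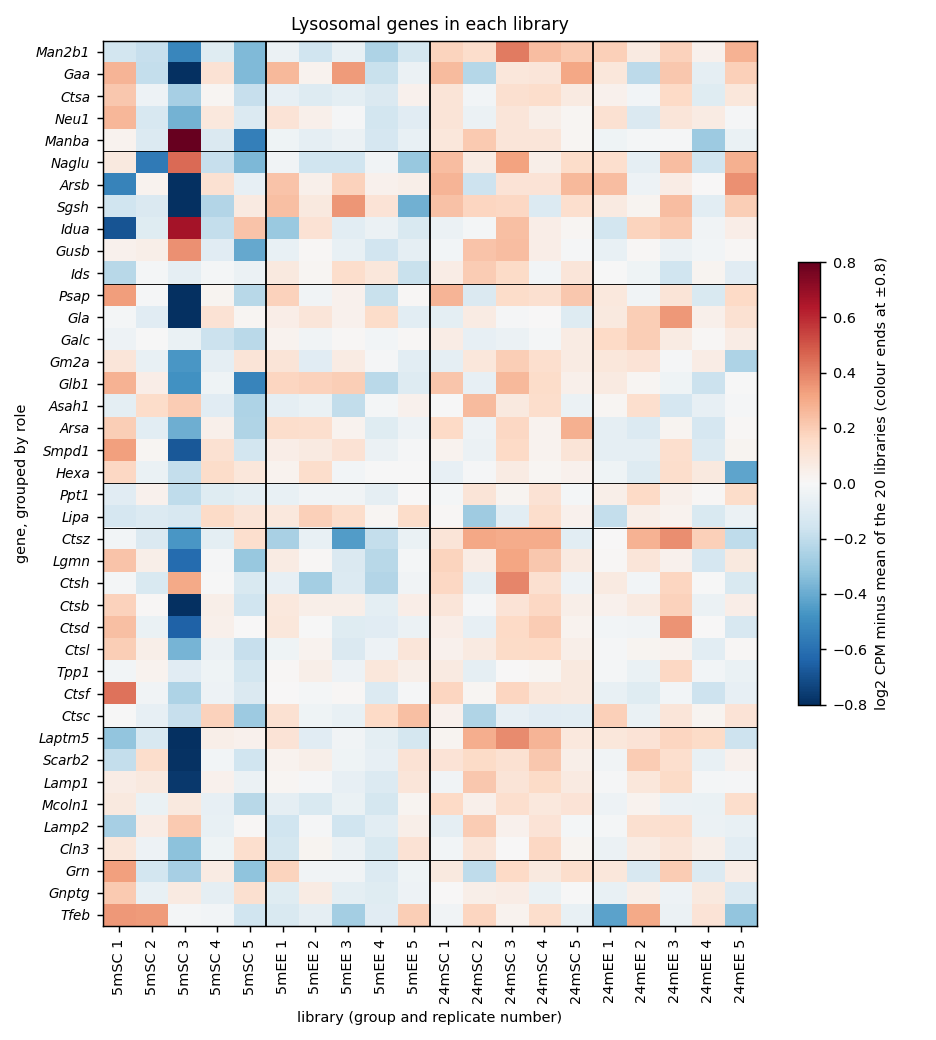
Log2 CPM of each gene in each library minus its mean over the 20 libraries, genes grouped by role and libraries by group; red is above and blue below the mean. The column of 5mSC replicate 3 holds the strongest colours in both directions, with the lowest value of its group in 23 genes and the highest in 8, and the row of Man2b1 is blue in nearly all libraries of 5 months and red in those of 24 months.

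All 6 glycosaminoglycan hydrolases, which take apart heparan and dermatan sulfate, were positive in the standard cage, with a median log2 difference of 0.22 and none passing (6 positive and a median of 0.21 without 5mSC replicate 3). Naglu, the alpha-N-acetylglucosaminidase of heparan sulfate breakdown (ENSMUSG00000001751, chromosome 11, 101070012 to 101077672), shows how 1 library moved such a value. Its level was 8.28, 5.30, 10.7, 6.91 and 6.13 CPM in 5mSC and 9.33, 8.21, 9.81, 8.10 and 8.68 CPM in 24mSC. The 24mSC libraries lay between 8.10 and 9.81 CPM, and 5mSC replicates 1 and 3 fell in or above that range. In 5mEE it was 7.70, 7.02, 7.04, 7.71 and 6.36 CPM, and in 24mEE 8.61, 7.48, 9.34, 7.04 and 9.57 CPM, so the enriched groups overlapped. Averaged over housing the log2 difference was 0.25 ± 0.101 (adjusted p = 0.257), and without 5mSC replicate 3 it was 0.31 (adjusted p = 0.0335). Naglu also passed there by limma-voom with quality weights on all 20 libraries, so the call turned on this library and on the fit. In the standard cage the log2 difference was 0.26 (adjusted p = 0.307), and 0.39 without 5mSC replicate 3 (adjusted p = 0.0730). The fit without 5mSC replicates 1 and 3 gave 0.51 (adjusted p = 0.0295). That fit drops the 5mSC libraries that overlapped 24mSC, so its call is no support for a rise.

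Values of other enzymes of this role are given for both kinds of housing. Arsb, the arylsulfatase of dermatan sulfate, had a log2 difference of 0.38 with age in the standard cage and 0.03 in enriched housing, and Sgsh had 0.34 and 0.00, while the difference between both age effects passed for neither. Leaving out 5mSC replicate 3 gave 0.21 for Arsb and 0.22 for Sgsh in the standard cage. Gusb, the beta-glucuronidase, had 0.11 and 0.04 (0.20 without this library in the standard cage), and Idua, the alpha-L-iduronidase, 0.03 and 0.14 (0.20 without it). Opposite-strand exons of other genes overlap 32.3% of the exons of Arsb and 21.6% of those of Sgsh, and the kit does not mark the strand, so reads there cannot be assigned. Ids read 585 ± 33.2 CPM in 5mSC, 629 ± 51.6 in 5mEE, 658 ± 39.4 in 24mSC and 593 ± 29.1 in 24mEE (SD, n = 5 each). Its log2 difference with age was 0.17 (adjusted p = 0.212) in the standard cage and −0.09 in enriched housing, and the difference between them was −0.26 (adjusted p = 0.621).

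Of the 9 sphingolipid hydrolases and their activators, 8 were positive in the standard cage with a median log2 difference of 0.10, 5 were positive in enriched housing, and none passed in either. Without 5mSC replicate 3, 6 of the 9 were positive in the standard cage. Psap read 1364 ± 408 CPM in 5mSC and 1616 ± 159 in 24mSC, a log2 difference of 0.25 (adjusted p = 0.394). This difference was 0.08 without 5mSC replicate 3. Galc, the galactosylceramidase that myelin turnover depends on, had the tightest values, at 28.7 ± 1.81 CPM in 5mSC, 30.6 ± 0.498 in 5mEE, 30.6 ± 1.26 in 24mSC and 32.8 ± 1.74 in 24mEE. Its log2 difference averaged over housing was 0.10 (adjusted p = 0.262). Glb1, the beta-galactosidase whose activity serves as a marker of senescent cells, was at 0.23 in the standard cage and −0.08 in enriched housing, and Arsa, the sulfatide sulfatase lost in metachromatic leukodystrophy, at 0.20 and −0.09, none of them passing. In the standard cage Glb1 and Arsa were at 0.15 and 0.13 without 5mSC replicate 3. Hexa, a subunit of beta-hexosaminidase, was the member of this role with a negative value in the standard cage, −0.03 (−0.09 without 5mSC replicate 3). In Gm2a, Smpd1 and Asah1, which serve ganglioside, sphingomyelin and ceramide breakdown, the values in the standard cage lay between 0.09 and 0.15 (0.06 for Gm2a, −0.04 for Smpd1 and 0.14 for Asah1 without 5mSC replicate 3).

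The lipid ester and thioester hydrolases had age differences of opposite sign in the standard cage. Ppt1, the palmitoyl-protein thioesterase whose loss causes infantile neuronal ceroid lipofuscinosis (ENSMUSG00000028657, chromosome 4, 122836242 to 122859175), varied least within its groups of the 40 genes. Its level was 101, 110, 93.6, 100.5 and 102 CPM in 5mSC and 107, 115, 109.5, 116 and 107 CPM in 24mSC. In 5mEE it was 103.5, 105.5, 106, 102 and 108 CPM, and in 24mEE 111, 120.2, 111, 108.5 and 119 CPM. The enriched groups did not overlap, whereas in the standard cage 5mSC replicate 2 lay among the old libraries. Its log2 difference averaged over housing was 0.12 ± 0.0395 (1.09-fold; adjusted p = 0.135), and with the DESeq2 Wald test 0.12 (adjusted p = 0.0154). Lipa, the acid lipase of cholesterol ester breakdown, was at −0.02 in the standard cage (−0.05 without 5mSC replicate 3) and −0.17 in enriched housing (adjusted p = 0.9997 in the latter).

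Of the 9 proteases, 8 were positive in the standard cage and 6 in enriched housing, with medians of 0.13 and 0.03 and none passing. Without 5mSC replicate 3 the median in the standard cage was 0.06, with 8 positive. Ctsz, a carboxypeptidase of the cathepsin family that microglia express (ENSMUSG00000016256, chromosome 2, 174427493 to 174439039), had the largest value after Man2b1 in the averaged comparison. Its level was 34.3, 32.2, 25.3, 33.1 and 38.3 CPM in 5mSC and 37.4, 43.2, 42.9, 42.9 and 33.0 CPM in 24mSC. In 5mEE it was 29.2, 33.4, 25.6, 30.5 and 33.7 CPM, and in 24mEE 34.9, 42.3, 45.1, 39.8 and 30.3 CPM. In 24mSC 3 libraries and in 24mEE 3 libraries exceeded every young library, and the groups overlapped through the rest. Averaged over housing the log2 difference was 0.31 ± 0.0820 (adjusted p = 0.0737). It passed in 4 of 28 alternatives. These were without 5mSC replicate 3 (0.27, adjusted p = 0.0394), without 24mEE replicate 5 (0.34, adjusted p = 0.0438), with the DESeq2 Wald test (adjusted p = 0.0211) and with limma-voom quality weights. Of all genes 0.604 to 5.94% passed in these fits, against 1.19% in the main fit. The library 24mEE replicate 5 held the lowest Ctsz value of the 24-month libraries, so leaving it out widens the age difference by construction.

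The more abundant proteases had small differences. Ctsd read 338 ± 69.9 CPM in 5mSC, 343.5 ± 18.8 in 5mEE, 370 ± 27.2 in 24mSC and 362 ± 50.3 in 24mEE. Of its 50-nucleotide words 32.4% occur in other annotated genes, mostly Gm49369, and for Ctsl the share is 26.3%, mostly Gm47123. No exon of Ctsd or Ctsl overlapped another counted gene. Ctsb, the main cysteine protease, was at a log2 difference of 0.20 in the standard cage and 0.03 in enriched housing, and legumain (Lgmn), the asparaginyl endopeptidase that processes other cathepsins, at 0.27 and 0.07. In the standard cage 5mSC replicate 3 moved these values: without it they were 0.05 for Ctsb and 0.16 for Lgmn, and that of Ctsd was 0.01 in place of 0.13. Tpp1, the tripeptidyl peptidase of late infantile neuronal ceroid lipofuscinosis, was at 0.07 and −0.02. Ctsc, which activates serine proteases of immune cells, was the protease with a negative value in the standard cage, −0.03 (−0.06 without 5mSC replicate 3).

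All 6 membrane proteins were positive with age in the standard cage and in enriched housing, with medians of 0.17 and 0.07, and none passed (6 positive and a median of 0.13 in the standard cage without 5mSC replicate 3). Laptm5, a lysosomal transmembrane protein of blood cells and microglia (ENSMUSG00000028581, chromosome 4, 130913125 to 130936141), had the largest difference of the 6. Its level was 33.5, 38.1, 23.8, 43.2 and 42.7 CPM in 5mSC and 42.5, 51.0, 54.4, 50.4 and 44.3 CPM in 24mSC. In 5mEE it was 45.0, 39.2, 41.0, 39.6 and 37.9 CPM, and in 24mEE 44.4, 45.0, 47.0, 46.4 and 37.2 CPM. In 24mSC 4 of the 5 libraries lay above all of 5mSC, and the enriched groups overlapped through 24mEE replicates 1 and 5. The log2 difference was 0.41 ± 0.118 in the standard cage (adjusted p = 0.0785), 0.12 in enriched housing and 0.26 averaged over both (adjusted p = 0.129). Without 5mSC replicate 3 the value was 0.29 in the standard cage (adjusted p = 0.0622) and 0.21 averaged over housing (adjusted p = 0.0472). Averaged over housing Laptm5 passed in 2 of 28 alternatives, this fit and limma-voom with quality weights. In the standard cage it passed in 1 of 29, the DESeq2 Wald test.

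Mcoln1, the cation channel mucolipin-1 that releases calcium from the lysosome (ENSMUSG00000004567, chromosome 8, 3500457 to 3515232), was the other membrane protein with values by library. In 5mSC it read 61.3, 55.9, 61.4, 55.4 and 49.9 CPM, and in 24mSC 64.9, 59.9, 63.9, 61.6 and 62.6 CPM. In 5mEE it read 55.1, 53.4, 55.9, 52.6 and 58.9 CPM, and in 24mEE 56.5, 59.1, 56.1, 55.9 and 64.1 CPM. The 24mSC libraries were tight and mostly above 5mSC, where replicates 1 and 3 overlapped them. Its log2 difference averaged over housing was 0.11 ± 0.0444 (adjusted p = 0.244), and it passed in 3 of 28 alternatives. These were the mean of the microglial markers as a covariate (0.17, adjusted p = 0.0425), limma-voom with quality weights, and the fit without 5mSC replicates 1 and 3 (0.15, adjusted p = 0.025). The last of these drops the 5mSC libraries that overlapped 24mSC, so its call is no support for a rise. Lamp1 read 267 ± 56.4 CPM in 5mSC and 307 ± 19.4 in 24mSC, where 5mSC replicate 3 alone stood at 167 CPM against 277 to 301 CPM in the other libraries of 5mSC. Its log2 difference in the standard cage was 0.20 with this library and 0.07 without it. Scarb2, the receptor that carries glucocerebrosidase to the lysosome, was at a log2 difference of 0.30 in the standard cage (adjusted p = 0.146; 0.18 without 5mSC replicate 3) and 0.04 in enriched housing. Lamp2 and Cln3, the protein of juvenile neuronal ceroid lipofuscinosis, lay between 0.05 and 0.10 in both (0.10 and 0.00 in the standard cage without 5mSC replicate 3).

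The genes of tagging, protection and transcriptional control had values near 0. Tfeb read 8.49 ± 1.36 CPM in 5mSC, 7.51 ± 0.923 in 5mEE, 8.14 ± 0.574 in 24mSC and 7.58 ± 1.57 in 24mEE (SD, n = 5 each). Its log2 difference with age averaged over housing was −0.02 (adjusted p = 0.935), with an approximate 95% interval from −0.21 to 0.16. A change of its mRNA was not shown. Grn, whose product progranulin supports lysosomal function, was at 0.10 in the standard cage (0.05 without 5mSC replicate 3) and 0.03 in enriched housing. Gnptg, a subunit of the phosphotransferase that makes the mannose 6-phosphate tag, was at −0.05 and 0.03, and another gene on the other strand covers 49.5% of its exons.

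Genes of the wider lysosomal pathway were read in fits that include 5mSC replicate 3. Over all genes 0.803% passed in the standard cage and 1.19% averaged over housing. Of 26 other lysosomal hydrolases and lumenal proteins, 1 passed in the standard cage and averaged over housing: Ctss, the cysteine protease of antigen presentation, which rose by a log2 difference of 0.62 ± 0.120 (adjusted p = 0.0199) and 0.53 ± 0.0846 (adjusted p = 0.00236). Of 18 other lysosomal membrane proteins, 1 passed: Cd68, a glycoprotein of phagocytes, which rose by 0.47 ± 0.101 (adjusted p = 0.0345) and 0.43 ± 0.0708 (adjusted p = 0.0025). Both are genes of microglia. In these comparisons none passed of 18 tested V-ATPase subunits, which acidify the lysosome, of 12 genes of mannose 6-phosphate tagging and sorting, of 17 tested MiT/TFE factors and genes of lysosomal mTORC1 signalling, or of 20 autophagy genes. The smallest p of these lists in the standard cage belonged to Atp6v1f (log2 difference −0.25, adjusted p = 0.0948), Gga3 (−0.14, adjusted p = 0.222), Lamtor4 (−0.26, adjusted p = 0.121) and Gabarap (−0.30, adjusted p = 0.0902). Median log2 differences of these 4 lists lay between 0.03 and 0.08 in the standard cage.

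Most markers of microglia were also higher at 24 months. Of 14 microglial markers, 12 were positive in the standard cage with a median log2 difference of 0.23. Among the 14, Cx3cr1 and P2ry13 rose and Fcrls fell past the test, against 0.803% of all genes that passed. The summed level of the 14 markers was 333 to 533 CPM in 5mSC, 462 to 527 in 5mEE, 539 to 617 in 24mSC and 470 to 582 in 24mEE. Of 9 tested markers of activated microglia, 7 were positive in the standard cage (median 0.50) and 8 in enriched housing (median 0.56). Clec7a and Itgax rose past the test in the standard cage, by log2 differences of 2.05 ± 0.395 (adjusted p = 0.0199) and 1.90 ± 0.389 (adjusted p = 0.024). The summed level of that list overlapped between all groups, but its mean log2 CPM did not overlap between the ages within a housing. That mean was 1.36 to 1.87 in 5mSC and 1.93 to 2.65 in 24mSC. In enriched housing it was 1 to 1.58 in 5mEE and 1.78 to 2.425 in 24mEE. In whole tissue, more cells of a type and more RNA per cell cannot be told apart. With the mean of the microglial markers as a covariate, 30 of the 40 lysosomal genes were positive in the standard cage (median 0.12). In enriched housing 18 were positive (median −0.01) and averaged over housing 29 (median 0.07). Of all genes 51.3, 48.94 and 50.75% were positive in this fit. The averaged log2 difference of Man2b1 in it was 0.36 (adjusted p = 0.00537). The covariate was itself higher with age (4.69 in 5mSC and 4.89 in 24mSC), so this fit cannot separate age from microglial markers. With the mean of the neocortical markers as a covariate 34, 28 and 34 genes were positive. The part of the striatal markers in the results of 24mSC was not tested. Neuronal markers were also positive in 10 of 10 genes in the standard cage (median 0.19) and in 4 of 10 in enriched housing (median −0.06), with none passing. Their mean log2 CPM spanned 8.45 to 9.38 in 5mSC, a range that held all of 24mSC (9.28 to 9.38). All marker values of this paragraph include 5mSC replicate 3. Oligodendrocyte markers were positive in 10 of 10 genes in the standard cage (median 0.20) and 7 of 10 in enriched housing (median 0.04), and blood markers in 5 of 5 (median 0.49) and 3 of 5 (median 0.03), none passing. The summed blood markers spanned 29.1 to 230.9 CPM in 24mSC and 32.6 to 88.3 in 5mSC. Their mean log2 CPM was 2.67 ± 1.33 in 24mSC and 2.67 ± 0.492 in 5mSC (SD, n = 5 each). The part of these lists in the lysosomal values was not tested.

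**Figure D5:**
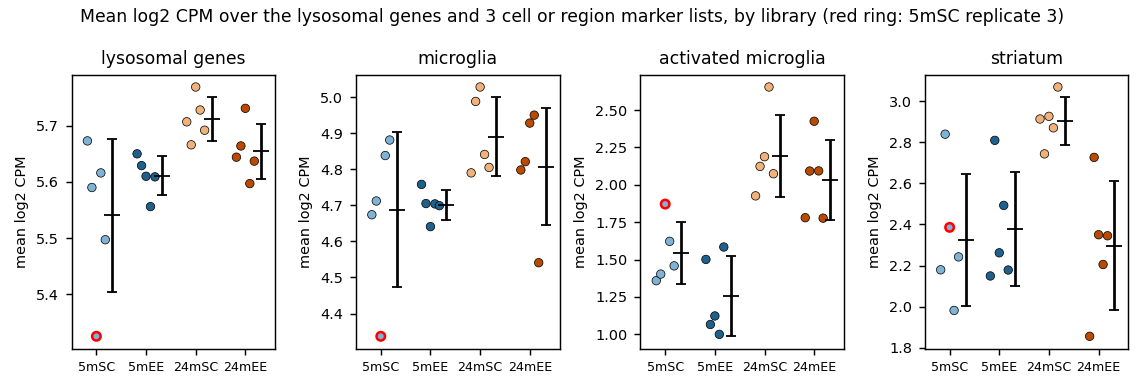
Mean log2 CPM over the 40 lysosomal genes, the 14 microglial, 10 activated microglial and 6 striatal markers in each library, by group; dashes and bars are the mean and SD of 5 libraries, and the red ring marks 5mSC replicate 3. The lysosomal mean is 5.54 ± 0.136 in 5mSC, 5.61 ± 0.035 in 5mEE, 5.71 ± 0.0388 in 24mSC and 5.66 ± 0.049 in 24mEE, and the microglial mean is also highest in 24mSC.

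The comparison of 24mEE with 24mSC asks whether enrichment is accompanied by other levels at 24 months. None of the 40 genes passed edgeR's test, and no gene of the whole table did (0% of all genes in this comparison, in that of 5mEE with 5mSC, in housing averaged over age and in the interaction of age and housing). Other fits of 24mEE against 24mSC called 31 genes (DESeq2 Wald test), 187 (only the compared groups) and 379 (limma-voom with quality weights). At an unadjusted p under 0.05, 1 of the 40 and 1037 of all genes differed. Of the lysosomal genes 34 were negative and 6 positive with a median log2 difference of −0.06, against a median of 0.00 over all genes, of which 49.42% were positive. All 6 membrane proteins and all 5 glycoprotein and glycogen hydrolases were negative. This comparison shares the 24mSC libraries with that of age in the standard cage, so values of opposite sign in them are not separate observations.

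Ctsf, a cysteine protease whose loss causes an adult form of neuronal ceroid lipofuscinosis, read 56.2 ± 2.65 CPM in 24mSC and 49.3 ± 1.77 in 24mEE (SD, n = 5 each), without overlap. Its log2 difference was −0.19 (adjusted p = 0.787), and it passed in the fit by limma-voom with quality weights (−0.19, adjusted p = 0.0394), in which 2.27% of all genes passed. Ctsl and Manba were the other genes with every 24mEE library below every 24mSC library, which held for 1.93% of all genes. Positive values belonged to Gla (0.18), Ctsc (0.16), Galc (0.10), Ppt1 (0.04), Arsb (0.01) and Idua (0.00). For Man2b1 the log2 difference was −0.09, with an approximate 95% interval from −0.24 to 0.07. Striatal and neocortical markers were lower in 24mEE than in 24mSC, by medians of −0.19 and −0.31, and hippocampal neuron markers were higher in 9 of 10 genes (median 0.35), with none passing. Blood markers were negative in 5 of 5 genes (median −0.72), microglial markers in 12 of 14 (median −0.09) and oligodendrocyte markers in 8 of 10 (median −0.11), none passing. The blood markers spread widely in 24mSC, at a mean log2 CPM of 2.67 ± 1.33 against 2.59 ± 0.357 in 24mEE (SD, n = 5 each). With the neocortical mean as a covariate 30 of the 40 lysosomal genes were negative (median −0.07), and with the microglial mean 28 (median −0.03). Without 24mSC replicate 3 there were 32 negative, with a median of −0.04.

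At 5 months the comparison of 5mEE with 5mSC had no passing gene by edgeR, and 1 of the 40 and 2759 of all genes differed at an unadjusted p under 0.05. Of the 40 genes 25 were positive with a median of 0.05, against 46.1% of all genes. Without 5mSC replicate 3 the count was 19 and the median 0.00, without replicate 1 it was 30 and 0.09, and without both it was 28 and 0.03. Arsb, at 50.2 ± 17 CPM in 5mSC and 65.2 ± 4.26 in 5mEE, had the largest log2 difference (0.37, adjusted p = 0.289). Averaged over both ages, 18 of 40 genes (45%) were positive for enrichment with a median of −0.01, near the 44.02% of all genes (median −0.02). None passed, while 2 of the 40 and 2140 of all genes had an unadjusted p under 0.05. In the interaction of age and housing none passed, and 2 of the 40 (Ids and Arsa) and 1336 of all genes had an unadjusted p under 0.05. Of the 40 interaction values 31 were negative and 9 positive, with a median of −0.07, whereas 51.79% of all genes were positive. By DESeq2 none of the 40 passed in any of these comparisons of housing.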

How the data were processed

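The authors deposited whole-number counts of reads per Ensembl gene for 20 libraries. Per the labels, an unstranded TruSeq kit was used. The submitters' processing notes name GRCm38, featureCounts 1.4.6-p4, the aligner STAR 2.4.1d and bcl2fastq 1.8.2. The study's own results came from another alignment and from more animals, with a term for the sequencing run, which no label gives. The deposited RPKM values follow the library totals and were not used.

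Of 47729 identifiers, 99.1% were matched to GENCODE M21. In edgeR 4.0.16 (R 4.3.3), filterByExpr (least count 10, least total 15) left 16692 genes, which were scaled by TMM. A quasi-likelihood model of the 4 groups was fitted to all 20 libraries, and 7 contrasts were tested with Benjamini-Hochberg adjustment over all genes (threshold 0.05). All adjusted p-values are from edgeR unless DESeq2 1.42.0 or limma 3.58.1 is named. CPM values are on the TMM scale, and library values are listed in order of replicate number, a number given by accession order that pairs nothing. Intervals are 1.96 SE on either side. In a library, 3 counts correspond to 0.0882 to 0.329 CPM, a limit that covers counting error only.

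The members and lists were chosen with earlier results of these data known. By rule, genes passing any contrast, filled to 6 by the smallest p for age averaged over housing, were described by library, and of each pathway list up to 3 passing genes or the 1 with the smallest p were named. Other genes named were chosen after their values were seen. Promoter sequences are from RefSeq. The scripts were tested on simulated data. Alternatives were DESeq2 size factors, the DESeq2 Wald test, other filters, limma-voom with quality weights, marker covariates, fits of 18 libraries or of only the compared groups, and leaving out each library.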

Additional observations from a re-analysis of the deposited data

Results flagged for a closer look

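A value was looked at again where the highest or lowest of the 5 libraries of a group lay apart by more than 0.71 of the group's range (Dixon's test). Of 160 groups of values (40 genes in 4 groups), 14 had such a library, and chance alone gives about 1 in 20. Of the 14, 4 belonged to 5mSC replicate 3, which read 24.5 CPM for Manba (12.6 CPM in the nearest library), 14.3 CPM for Ctsh (11.7), 4.82 CPM for Gla (8.65) and 167 CPM for Lamp1 (277). The mitochondrial share of this library is given with the depth of the series. Other single high libraries were 5mSC replicate 1 for Ctsf (70.5 CPM, nearest 51.3), 5mEE replicate 2 for Hexa (55.3 CPM, nearest 51.1), 5mEE replicate 1 for Grn (66.3 CPM, nearest 57.5), and 24mEE replicate 3 for Ctsd (449.5 CPM, nearest 350.5) and Tpp1 (85.7 CPM, nearest 75.5). Single low libraries were 24mEE replicate 4 for Manba (10.1 CPM, nearest 11.9), 5mEE replicate 4 for Ctsb (455 CPM, nearest 496.5) and Ctsf (48.5 CPM, nearest 51.7), 24mEE replicate 5 for Laptm5 (37.2 CPM, nearest 44.4) and 24mSC replicate 2 for Grn (51.0 CPM, nearest 61.8).

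In 3 genes every library of one group lay on one side of its control mean and every library of the other group on the opposite side. For Ids all 24mSC libraries were above the 5mSC mean and all 24mEE libraries below the 5mEE mean (interaction on the log2 scale −0.26, adjusted p = 0.621), and the same held for Arsa (−0.29, adjusted p = 0.621). For Laptm5 all 24mEE libraries were below the 24mSC mean and all 5mEE libraries above the 5mSC mean (−0.29, adjusted p = 0.643). None of these interactions passed.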

How the results depend on the processing

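The number of lysosomal genes passing, in place of 1 in the standard cage age comparison, was 2 with the DESeq2 Wald test (Man2b1, Laptm5), 2 without 5mSC replicates 1 and 3 and 2 with limma-voom quality weights (Man2b1, Naglu in both), and 0 when only the compared groups were fitted. It was 1 to 2 when single libraries were left out, the second gene being Scarb2 without 5mSC replicate 2 (adjusted p = 0.0406). For age in enriched housing, 0 became 1 (Man2b1) without 5mSC replicates 1 and 3 and 1 with quality weights. For age averaged over housing, 1 became 3 with the DESeq2 Wald test, 3 without 5mSC replicates 1 and 3, 5 with quality weights and 2 with the microglial covariate, and 1 to 4 when single libraries were left out, the 4 being without 5mSC replicate 3. For 24mEE against 24mSC, 0 became 1 (Ctsf) with quality weights. The fit without 5mSC replicates 1 and 3 drops the 5mSC libraries that overlapped 24mSC for Naglu and Mcoln1. The cause of these changes was not tested. In the other 3 comparisons no lysosomal gene passed under any alternative run. Man2b1 passed under all 28 alternatives for age averaged over housing (log2 difference 0.35 to 0.40) and under 28 of 29 alternatives for the standard cage, the exception being the fit of only the compared groups. No called value changed sign. No paired analysis was possible because replicate numbers follow the order of deposition. The share of all genes that passed changed under these alternatives as well. For age averaged over housing (1.19% in the main fit) it was 3.19% with the DESeq2 Wald test, 5.94% with quality weights and 2.05% with the microglial covariate. It was 5.71% without 5mSC replicates 1 and 3 and 5.37% without 5mSC replicate 3. For age in the standard cage (0.803% in the main fit) it was 4.55% with the DESeq2 Wald test and 1.83% with quality weights. It was 2.14% without 5mSC replicates 1 and 3, 6.67% without 5mSC replicate 2 and 0.019% in the fit of only the compared groups. For age in enriched housing (0.108% in the main fit) it was 0.572% without 5mSC replicates 1 and 3 and 0.971% with quality weights. The lowest count of a lysosomal gene in a library was 25 (Sgsh), where counting error adds to the spread.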
